A study of Homo sapiens with 6 samples.

Results

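The CEACAM adhesion molecules CEACAM1, CEACAM5, CEACAM6 and CEACAM7, the trefoil factors TFF1, TFF2 and TFF3, and the secretory epithelial proteins AGR2, PIGR and LCN2 were followed in Capan-1 cells after silencing of GNE. These 10 genes were taken by name, with every probe set that the platform annotation assigns to 1 of them alone, which gave 20 of the 54675 probe sets on the array; 19775 genes in all had a probe set of their own. Capan-1 is an established human pancreatic carcinoma line, and GNE encodes the enzyme that starts sialic acid synthesis. The 3 siGNE arrays carried RNA of cells given GNE siRNA, and the 3 control arrays carried RNA of cells given the control siRNA that the labels call allStar. All cells were transfected 2 times at an interval of 48 h with 0.4 µg siRNA per well and RNA was taken 72 h after the later transfection. Arrays are numbered V1 to V3 in each group, and arrays with the same number are called a pair. No label tells whether V1 to V3 are independent cultures, so a p-value here reflects array-to-array spread that may be technical, and the number of siRNA sequences is not stated either.

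CEACAM proteins belong to the immunoglobulin superfamily. CEACAM1 spans the membrane and carries inhibitory signalling motifs in its long isoforms, whereas CEACAM5 (carcinoembryonic antigen), CEACAM6 and CEACAM7 are held by a glycosylphosphatidylinositol (GPI) anchor and are heavily glycosylated. Trefoil factors are small, disulfide-linked peptides secreted with mucus that help to protect and repair mucosal surfaces. AGR2 is a protein disulfide isomerase of the endoplasmic reticulum needed for mucin folding, PIGR carries dimeric IgA across epithelia, and LCN2 is a secreted lipocalin that binds bacterial siderophores.

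GNE itself was lower in every pair. Its only probe set read 8.39, 9.86 and 9.57 (log2 expression value, V1 to V3) on siGNE arrays, against 11.12, 11.47 and 10.86 on control arrays, so the groups did not overlap. The difference was -1.88 (SE 0.40), which left 27.2% of the control level, with a limma adjusted p of 0.131 and of 0.0348 with the pair number as a block. By exact permutation (two-sided) p was 0.1, and 3 against 3 arrays cannot go lower. All 8 ductal epithelial markers were above 4 on average, and all 7 leukocyte, 4 endothelial and 3 acinar markers with a probe set of their own were below it. Of 6 fibroblast markers only COL1A1 was above 4, and it rose by 0.71 with the block (limma adjusted p 0.0441). Without the block its limma adjusted p was 0.512, and its groups overlapped. Its other tested probe sets differed by 0.52 and 0.22, with blocked limma adjusted p of 0.0384 and 0.290. The part of COL1A1 in the results was not tested. Over all probe sets the deposited log2 values spanned 0.61 to 16.34, and the array medians were 2.96 to 3.02.

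Of the 20 probe sets, 13 had a mean above 4 over all arrays and were tested, and they represent 8 of the 10 genes. The other 7, among them all 3 for CEACAM7 and the only one for TFF3, read between 2.12 and 3.54 on every array. None of the 13 was called without the block, at a limma adjusted p under 0.05, and 0 of them had an unadjusted p under 0.05. Of the 22085 tested probe sets 0.0408% were called (all higher in siGNE cells, 0% lower) and 14.6% had an unadjusted p under 0.05. With the pair block 1 of the 13 was called higher and 0 lower, against 4.13% of all tested probe sets called higher and 5.35% called lower. That probe set was for CEACAM5. In that fit the unadjusted p was under 0.05 for 3 of the 13, against 31.6% of all tested probe sets. The siGNE and control values were separate for 2 of the 13, LCN2 above and TFF2 below, against 20.4% of all tested probe sets (8.39% above and 12% below). Taking 1 probe set per gene, 1 of the 8 tested genes was called higher with the block, against 4.11% of all 10733 tested genes, and 0 without it, against 0.028%. The median difference of the 8 tested genes was 0.05, against -0.02 for all tested genes. Since the arrays measure bulk RNA, a change in the share of cells that express a gene and a change in its RNA per cell cannot be told apart.

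**Figure D1:**
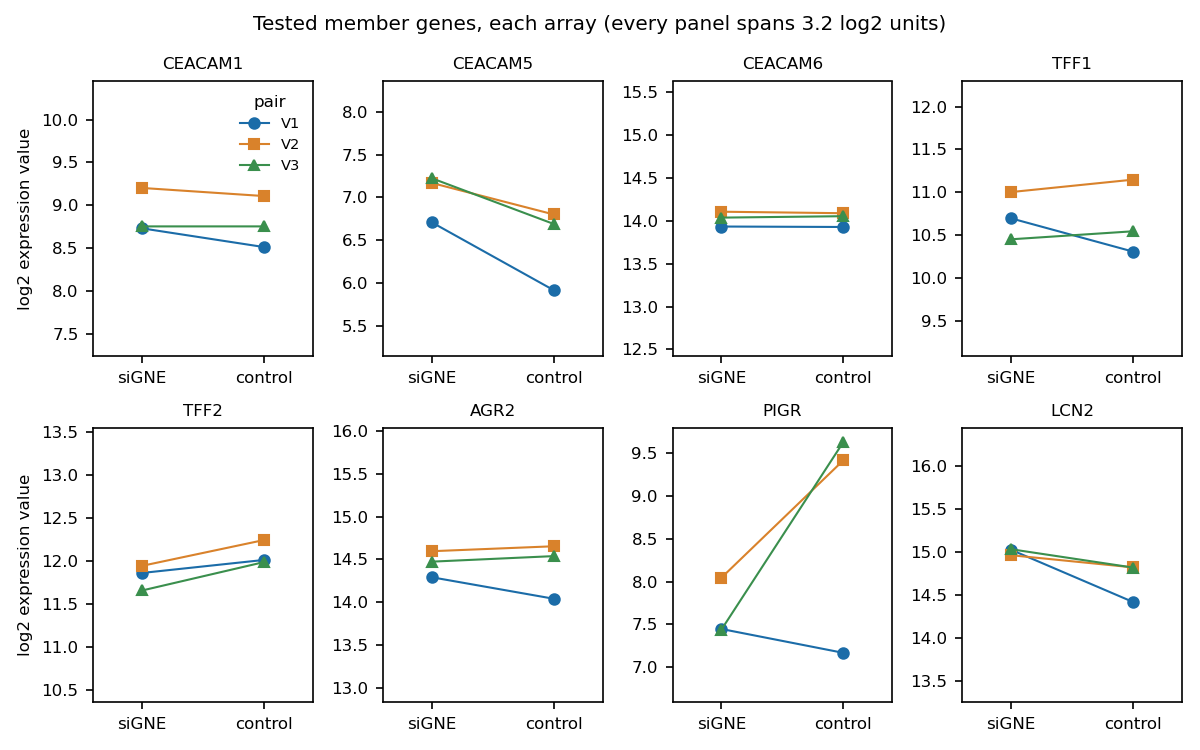
Log2 expression value (vertical axis) of the 8 tested genes on each array, 1 probe set per gene, with siGNE arrays on the left and control arrays on the right. Lines join arrays of the same number (V1, V2, V3). CEACAM5 was higher in siGNE in all 3 pairs, CEACAM6 differed by less than 0.02 in each pair, and PIGR was lower in pairs V2 and V3 only.

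CEACAM5 was the only member called higher, and it was called only with the pair block. Its tested probe set read 6.71, 7.17 and 7.22 on siGNE arrays V1, V2 and V3, against 5.92, 6.80 and 6.69 on control arrays. Each siGNE array was above the control array of its number, but siGNE V1 lay below control V2, so the groups overlapped. The means were 7.03 ± 0.28 in siGNE cells and 6.47 ± 0.48 in control cells (SD, n = 3 arrays each). The difference of 0.56 is a 1.48-fold higher level, and the pairs stood at 0.79, 0.37 and 0.53. In limma the unblocked adjusted p was 0.423 (SE 0.28), and the block brought it to 0.0491 (SE 0.11, 95% interval 0.27 to 0.86). When dim probe sets were left in the fit the blocked limma adjusted p was 0.252, and leaving out pair V1, V2 or V3 gave 0.117, 0.134 and 0.175 at differences of 0.45, 0.66 and 0.58. Without control V1 the unblocked difference was 0.29. The other CEACAM5 probe set stayed between 3.33 and 3.36 on all arrays and was not tested.

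CEACAM6, the close relative of CEACAM5 that is abundant on many carcinoma cells, did not pass with either probe set. The probe set used read 13.93, 14.11 and 14.04 on siGNE arrays and 13.93, 14.09 and 14.05 on control arrays. The difference was 0.002 (SE 0.12, limma adjusted p 0.998), with a 95% interval from -0.28 to 0.28, and from -0.21 to 0.21 with the block. A second probe set read 13.77, 13.74 and 14.30 in siGNE cells and 13.70, 14.02 and 14.37 in control cells. Its difference was -0.09 (SE 0.23, limma adjusted p 0.925), within the spread between arrays.

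CEACAM1 had 4 tested probe sets, and none of them passed. The one used read 8.73, 9.20 and 8.75 on siGNE arrays and 8.51, 9.11 and 8.75 on control arrays. V2 was the highest array in both groups, and the groups overlapped. The difference was 0.10 (SE 0.21, limma adjusted p 0.899, 95% interval -0.41 to 0.62, and -0.13 to 0.34 with the block), and it turned negative when control V1 or siGNE V2 was left out. The remaining 3 differed by 0.09, 0.14 and 0.11 and failed both limma fits. One more CEACAM1 probe set was not tested, with values between 2.12 and 2.46. Of the tested sets 2 carry the suffix of probe sets prone to cross-hybridisation, and CEACAM genes are similar in sequence, so values for a single CEACAM are uncertain to that extent.

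CEACAM7, which is normally found on colon and pancreatic duct epithelium, was under the limit for testing. Of its 3 probe sets 2 stayed between 2.45 and 2.77. The other read 2.34, 3.05 and 2.29 on siGNE arrays and 2.32, 2.32 and 2.30 on control arrays, so siGNE V2 alone stood above the rest, still below 4. The other CEACAM genes analysed, CEACAM3, CEACAM4, CEACAM8, CEACAM19 and CEACAM21, were all under 4 on average, and 0 of these 5 genes were tested.

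The stretches just upstream of the CEACAM genes are shown because the 3 GPI-anchored genes and CEACAM1 have related upstream sequences, while CEACAM5, CEACAM6 and CEACAM1 were tested here and CEACAM7 was too low for that. Each is the 120 bases before the annotated transcription start, from RefSeq on GRCh38.p14, written 5′ to 3′ on the gene's strand, with the E-box hexamer CACGTG in capitals. This hexamer reads the same on both strands and is recognised by USF and other basic helix-loop-helix factors.
CEACAM5 (chr19:41708506-41708625, + strand): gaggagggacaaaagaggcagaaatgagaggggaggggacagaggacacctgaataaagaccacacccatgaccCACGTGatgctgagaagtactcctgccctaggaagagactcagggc
CEACAM6 (chr19:41755410-41755529, + strand): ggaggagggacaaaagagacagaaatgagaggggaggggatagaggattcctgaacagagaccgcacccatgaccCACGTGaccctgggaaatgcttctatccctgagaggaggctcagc
CEACAM7 (chr19:41688271-41688390, - strand): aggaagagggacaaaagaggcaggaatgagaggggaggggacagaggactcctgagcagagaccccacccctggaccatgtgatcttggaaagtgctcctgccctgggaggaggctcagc
CEACAM1 (chr19:42528482-42528601, - strand): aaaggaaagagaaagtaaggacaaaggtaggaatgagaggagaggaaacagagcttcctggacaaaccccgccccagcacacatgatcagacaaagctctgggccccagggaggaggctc

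CACGTG stood at -46 to -41 in CEACAM5 and at -45 to -40 in CEACAM6, counted from the start site, and not in the 250 bases before CEACAM7 or CEACAM1. Only this exact spelling was searched, and the stretches printed for CEACAM7 and CEACAM1 hold the near spellings CATGTG and CACATG. The exact spelling CACGTG occurred in 6.34% of the 35116 annotated promoters over the same 250 bases. Over those 250 bases CEACAM5 was 73.6% identical to CEACAM6, 80.5% to CEACAM7 and 64.4% to CEACAM1 in a global alignment, and 48.1% to LCN2. So the pair that carries the hexamer is not the pair most alike in sequence. These letters describe the windows and show no binding. USF2, a factor known to bind the hexamer and picked out after its values were seen, differed by 0.03 (SE 0.20, limma adjusted p 0.971). Its other tested probe sets differed by -0.10 and -0.14 and did not pass. All USF2 probe sets carry the suffix of probe sets prone to cross-hybridisation. The USF1 probe set read 2.29 to 2.45, too low to be tested, so USF1 was not assessed.

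None of the trefoil factors passed. TFF2, the trefoil peptide of gastric mucous neck cells, was lower in all pairs. It read 11.86, 11.94 and 11.66 on siGNE arrays and 12.01, 12.25 and 11.99 on control arrays, so every siGNE value lay below every control value. The means were 11.82 ± 0.15 in siGNE cells and 12.08 ± 0.14 in control cells (SD, n = 3 arrays each), and the difference of -0.26 corresponds to 83.4% of the control level. It did not pass in either fit, with a limma adjusted p of 0.465 without the block (SE 0.14) and 0.125 with it (SE 0.09).

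TFF1, the peptide of gastric surface mucous cells and a gene known for its estrogen response in breast cancer cells, read 10.70, 11.00 and 10.45 on siGNE arrays and 10.31, 11.15 and 10.55 on control arrays. The pairs went different ways, with V1 higher by 0.39 and V2 and V3 at -0.14 and -0.09. The difference was 0.05 (SE 0.26, limma adjusted p 0.968, 95% interval -0.57 to 0.67). TFF3, the intestinal trefoil factor, was read at 3.54, 3.44 and 3.42 in siGNE cells and 3.44, 3.43 and 3.30 in control cells, and was not tested. TFF1, TFF2 and TFF3 are named without a promoter.

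AGR2 was read near the upper end of the scale and did not differ beyond the spread between arrays. The probe set used read 14.29, 14.60 and 14.47 on siGNE arrays and 14.04, 14.65 and 14.54 on control arrays. The difference was 0.04 (SE 0.19, limma adjusted p 0.964), with a 95% interval from -0.43 to 0.51, and from -0.23 to 0.32 with the block. The other probe set read 8.75, 8.94 and 8.84 in siGNE cells and 8.35, 9.25 and 8.99 in control cells, a difference of -0.02 (SE 0.24, limma adjusted p 0.984). In both probe sets pair V1 was higher in siGNE cells and pairs V2 and V3 were lower.

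PIGR had the largest difference in size among the 8 tested member genes, and the pairs did not share a direction. The tested probe set read 7.45, 8.04 and 7.44 on siGNE arrays and 7.17, 9.42 and 9.63 on control arrays. The siGNE values lay close together, while control V1 stood far below the other control arrays. Within pairs the difference was 0.28 in V1, -1.37 in V2 and -2.19 in V3. The mean difference was -1.09, which is 46.8% of the control level, with a limma adjusted p of 0.528 without the block (SE 0.66) and 0.192 with it (SE 0.47, 95% interval -2.32 to 0.13). Without control V1 it was -1.88 (limma adjusted p 0.224), and without pair V1 and with the block it was -1.78 (limma adjusted p 0.0728). Pair V1 is the one that went the other way, so leaving it out enlarges the fall. Other removals made it smaller, down to -0.65 with 1 array left out and -0.55 with 1 pair left out and the block. The other PIGR probe set read 2.27 to 2.28 on siGNE arrays and 2.27 to 2.86 on control arrays and was not tested, so PIGR rests on a single probe set.

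LCN2 was higher in all pairs, by unequal amounts. Its only probe set read 15.02, 14.96 and 15.03 on siGNE arrays and 14.42, 14.82 and 14.82 on control arrays. All siGNE values lay above all control values, with control V1 the lowest array. The means were 15.01 ± 0.04 in siGNE cells and 14.68 ± 0.23 in control cells (SD, n = 3 arrays each). LCN2 thus differed by 0.32 or 1.25-fold, with 0.61, 0.14 and 0.21 in the pairs, and by 0.19 without control V1. It did not pass, with a limma adjusted p of 0.396 without the block (SE 0.15) and 0.157 with it (SE 0.12). These values are near the top of the scale, whose highest value was 16.34.

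The LCN2 upstream sequence is shown because LCN2 is known as a target of NF-kB and of the atypical IkB protein NFKBIZ. NFKBIZ itself, picked out after its values were seen, was lower in all 3 pairs with both of its probe sets, with differences of -0.41 and -0.53. It passed with neither (limma adjusted p 0.0682 and 0.0733 with the block). With 1 probe set per gene, 3320 of all 10733 tested genes were lower in all 3 pairs. The NF-kB subunits NFKB1, RELB and RELA, picked in the same way, differed by -0.23, -0.02 and 0.13. A second RELA probe set differed by -0.01, and none of these passed. The capitals mark a kappaB-like match (GGGA, 3 bases of any kind, TCC, searched on both strands), a spelling chosen after the sequence was seen. The forward and reverse matches overlap and span -176 to -166.
LCN2 (chr9:128149253-128149452, + strand, RefSeq, GRCh38.p14): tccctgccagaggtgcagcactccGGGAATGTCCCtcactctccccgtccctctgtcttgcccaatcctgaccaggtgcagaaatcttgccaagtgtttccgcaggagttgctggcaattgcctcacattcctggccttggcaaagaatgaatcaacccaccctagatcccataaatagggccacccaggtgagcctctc
This match occurred in 4.31% of all promoters over 250 bases. Among the 7 members with a promoter sequence it was found in CEACAM1 and in LCN2, where the choice of spelling had fixed it. No member promoter held TGATGNAA, the C/EBP-ATF element that ATF4 and CHOP bind (3.14% of all promoters), or TGACNNNGC, the antioxidant response element of NRF2 (10.9%), on either strand. The TATA box spelling TATAAA (10.7% of all promoters) was found only in CEACAM6 among the 7, at -139 to -134, outside the stretch printed. It was searched anywhere in the 250 bases, so the match is one of letters and shows no working TATA box. No match of one motif overlapped another motif.

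**Figure D2:**
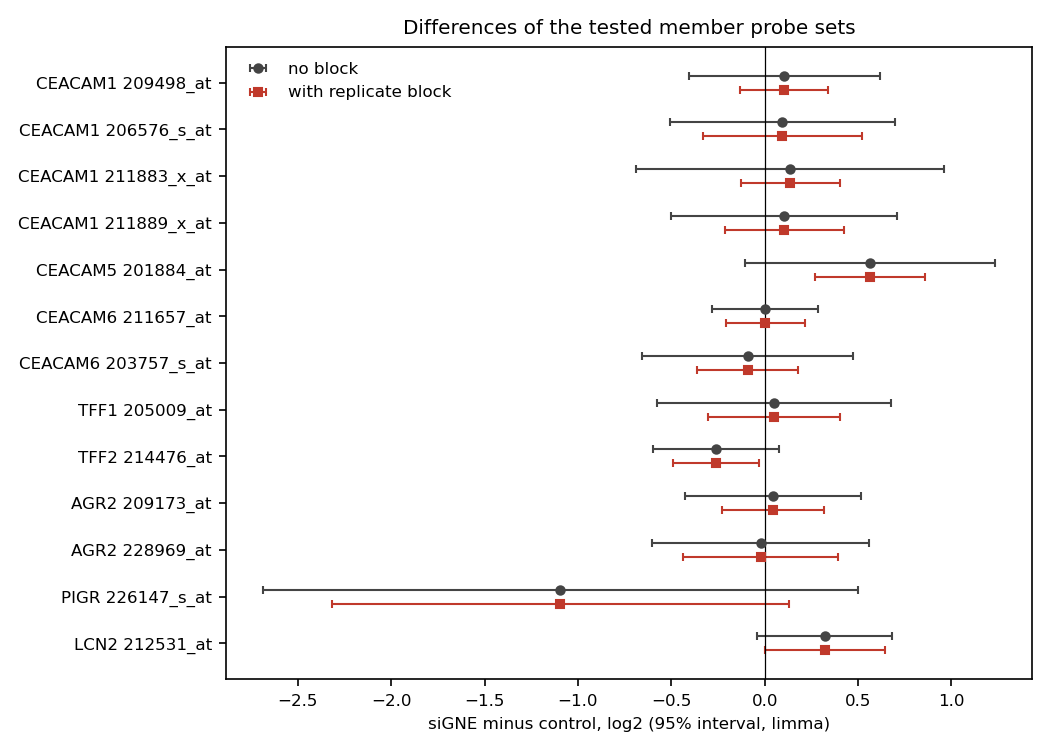
Difference between siGNE and control (log2, horizontal axis) for the 13 tested probe sets, with 95% intervals from limma without the block (circles) and with the pair block (squares). The blocked interval for CEACAM5 runs from 0.27 to 0.86, the unblocked interval of the CEACAM6 probe set used, -0.28 to 0.28, is the narrowest of its kind, and those of PIGR are the widest.

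Control array V1 was often low for these genes. It was the lowest control array in 11 of the 13 tested probe sets, where it was the lowest for 23.3% of all tested probe sets. The exceptions were TFF2 and 1 CEACAM1 probe set. The siGNE arrays V1 and V2 were each the lowest of their group in 5 of the 13, against 27% and 25.4% of all tested probe sets. With 1 probe set per gene, siGNE V1 was lowest in 4 and control V1 in 7 of the 8 member genes, where the shares of all tested genes were 26.1% and 23.3%. In the 13 gastric and mucous genes tested, siGNE V1 was lowest in 7 and control V1 in 10. In the 8 epithelial defence and acute phase genes tested, siGNE V1 was lowest in 2 and control V1 in 5. The median difference of the 8 tested genes was 0.26 in pair V1, against -0.02 in pair V2 and -0.04 in pair V3. The 3′ minus 5′ signal of control probe sets is a measure of RNA integrity. For beta-actin it was 1.48, 1.25 and 0.49 on siGNE arrays and 1.08, 1.44 and 0.53 on control arrays. For GAPDH it was 0.057, 0.093 and -0.0425 on siGNE arrays and 0.035, 0.099 and -0.071 on control arrays. Both were lowest in V3 in each group. Why control V1 was often low was not tested.

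By the root mean square distance between centred log2 values over the 6 arrays, the genes most like CEACAM5 were ABCG1 (0.08) and FLRT3 (0.12), where the median over 10732 genes was 0.50. ABCG1, a cholesterol transporter, read 5.89, 6.48 and 6.50 in siGNE cells and 5.28, 5.98 and 5.86 in control cells, and differed by 0.59. FLRT3, a membrane protein with leucine-rich repeats, differed by 0.42. Both were picked for their likeness to CEACAM5 over all arrays, which fixes differences like its own, so no test is given.

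Other epithelial secretory and defence genes were set beside the members by list. Of 27 gastric and mucous genes 13 were tested, with a median difference of -0.06, and 0 passed without the block, with 0 at an unadjusted p under 0.05 there. Only DMBT1, a secreted scavenger receptor of mucosal surfaces picked out after its values were seen, fell in the blocked fit, by 0.81 (SE 0.12, limma adjusted p 0.0319). That is 1 of 13 genes, against 5.79% of all tested genes called lower, and 3 of the 13 had a blocked unadjusted p under 0.05, against 32.5%. The siGNE and control values of DMBT1 overlapped, and its unblocked limma adjusted p was 0.79 (SE 0.96). FCGBP (-0.78), a protein of mucus, GCNT3 (-0.42), an enzyme of mucin glycan branching, TSPAN8 (0.13) and the mucin gene MUC6 (0.11) passed in neither limma fit. Of 21 epithelial defence and acute phase genes, 8 were tested with a median of -0.97. None passed without the block in limma, where 4 of the 8 had an unadjusted p under 0.05, against 16.3% of all tested genes. With it 4 of the 8 fell, against 5.79% of all tested genes, and 6 had an unadjusted p under 0.05, against 32.5%.

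The 4 that fell were C3, CXCL8, S100A9 and DEFB1. Complement C3 read 4.48, 4.29 and 5.14 on siGNE arrays and 5.69, 5.97 and 6.10 on control arrays and fell by 1.28 with the block (SE 0.16, limma adjusted p 0.0281). The chemokine CXCL8 fell by 1.26, the calprotectin subunit S100A9 by 0.87 and the defensin DEFB1, picked out after its values were seen, by 1.32 (limma adjusted p with the block 0.0294, 0.0344 and 0.0231). S100A8, the other calprotectin subunit on the list, read between 2.03 and 2.55 and was not tested. DEFB1 read 7.29, 9.19 and 8.76 on siGNE arrays and 8.38, 10.52 and 10.30 on control arrays. Its groups thus overlapped, and its unblocked limma adjusted p was 0.480. The protease inhibitor SLPI, also picked afterwards, differed by 0.32, WFDC2 by -0.45, and MMP9, a matrix metalloproteinase picked in the same way, by -0.64, and none of these 3 passed. The siGNE and control values of WFDC2 did not overlap, its limma adjusted p with the block was 0.0569, and it passed in 2 of 7 other blocked settings. Complement factor B (CFB), picked afterwards too, read 4.33, 4.32 and 4.25 in siGNE cells and 4.26, 5.95 and 5.88 in control cells. As for PIGR, control V1 was low and pairs V2 and V3 alone were lower in siGNE cells. CFB passed in neither limma fit (-1.06).

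**Figure D3:**
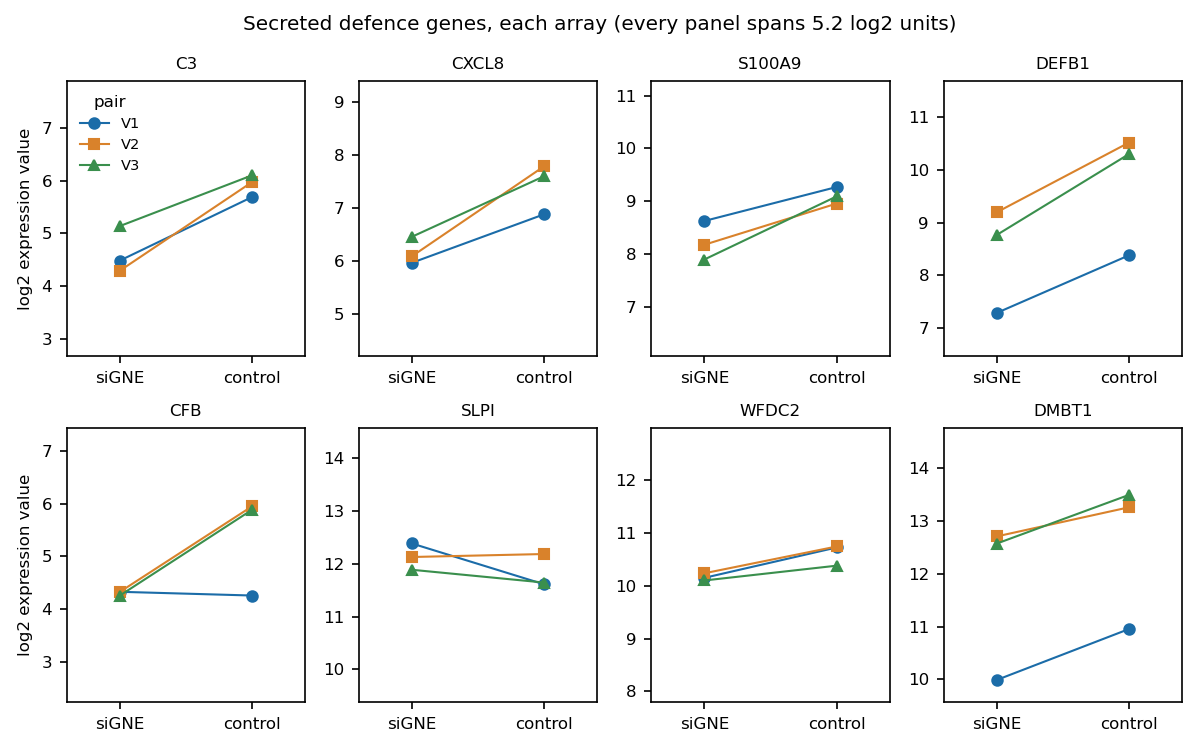
Log2 expression value (vertical axis) of 7 defence genes and DMBT1 on each array, with siGNE arrays on the left and control arrays on the right, and lines joining arrays of the same number. C3, CXCL8, S100A9 and DEFB1 were lower in siGNE in all 3 pairs, and CFB was lower in V2 and V3 only.

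Of 28 transcription factors known to act on secretory or defence genes 23 were tested, with a median of -0.01, and 0 passed in limma without or with the block. The unadjusted p was under 0.05 for 2 of the 23 without the block, against 16.3% of all tested genes, and for 5 with it, against 32.5%. FOXA3 (-0.87), CREB3L4 (-0.70), FOXA2 (-0.51) and GATA6 (0.41) had the smallest unadjusted p without the block. FOXA3 read 3.44, 4.24 and 3.94 on siGNE arrays and 4.81, 4.85 and 4.56 on control arrays. Its siGNE mean of 3.87 was below 4, so it was tested only because the control values were higher. With the block its limma adjusted p was 0.0511, and it did not pass. FOXA3 passed in 5 of 6 other blocked settings, and CREB3L4 in 1 of 7, but these settings were chosen after seeing the data. Of 16 partners and receptors of the member proteins 7 were tested, with a median of 0.04, and again 0 passed (0 with an unadjusted p under 0.05 in either limma fit). The phosphatases PTPN6 and PTPN11, which bind the CEACAM1 tail, differed by -0.11 and -0.07, and the integrin subunit ITGB1 and the cargo receptor TMED2 by 0.09 and -0.08. Of 27 genes of GPI anchor assembly, on which CEACAM5, CEACAM6 and CEACAM7 depend for their membrane attachment, 26 were tested with a median of -0.09. With the block 3 fell and 0 rose, against 5.79% of all tested genes lower and 4.11% higher, and 8 had an unadjusted p under 0.05, against 32.5%. Those that fell were GPAA1, a subunit of the transamidase that attaches the anchor, by 1.11, and PIGN and PIGB, which act in anchor synthesis, by 0.87 and 0.77 (limma adjusted p 0.0242, 0.0385 and 0.0355). The other GPAA1 probe sets differed by -1.16 and -1.17, but all for this gene carry the suffix of probe sets prone to cross-hybridisation. A second probe set for PIGN differed by -0.23 and one for PIGB by -0.75, and neither passed. PIGF differed by -0.28 and did not pass, and 0 passed without the block, where the unadjusted limma p was under 0.05 for 5 of the 26, against 16.3% of all tested genes.

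**Figure D4:**
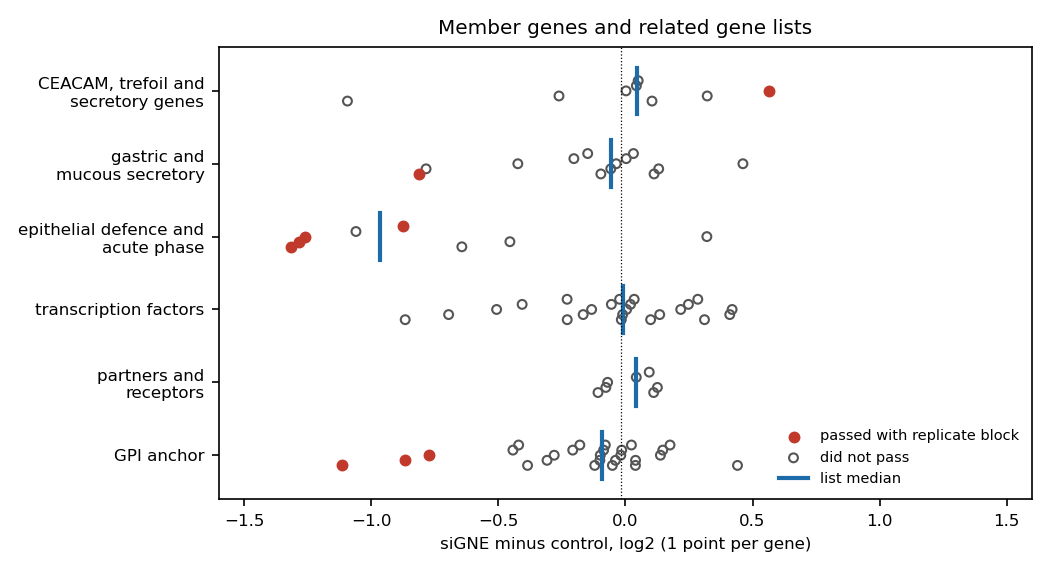
Difference between siGNE and control (log2, horizontal axis) for each tested gene of the member list and of 5 related lists, 1 point per gene, filled where it passed in limma with the pair block. Vertical bars are list medians and the dotted line is the median of all tested genes, -0.02. The defence list has its median at -0.97, and the member list at 0.05.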

How the data were processed

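Expression was measured on 6 arrays, 3 siGNE and 3 control. The deposited values are log2 expression values, made by the authors with GCRMA, per the submitters' processing notes; no source consulted gives its version or chip definition, and the values themselves show the log scale. Labelled cRNA was made from 300 ng total RNA, per the labels' protocols. No renormalization was applied, and arrays have no read depth; their number limits the precision.

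Gene names came from the platform annotation, with symbols updated by gene ID from the RefSeq table of GRCh38.p14 (41043 of 41097 single-gene probe sets matched; 1801 had several genes and 11777 none). The test was limma 3.58.1 (R 4.3.3; lmFit, eBayes) with Benjamini-Hochberg adjustment over 22085 probe sets with a mean above 4, without 62 control probe sets, called at an adjusted p under 0.05. The labels' titles carry numbers 1 to 3 in each group. Deviations from the group means correlated at 0.58, 0.71 and 0.83 for same-number arrays and from -0.64 to 0.17 for the others, so the numbers pair the arrays, and blocked values stand beside results they change. The probe set used per gene had the highest mean, leaving out cross-hybridising (_x_at) sets where the gene had another. The named genes are GNE, all members, up to 4 genes per list with the smallest unadjusted p, and the 2 genes nearest to each member that passed with the block. Promoters of 7 of the 10 members came from RefSeq and were aligned with Biopython 1.88. The members and lists were chosen with earlier results of these data known. Alternatives were another filter, a floor at 4, quantile or median scaling, array weights, trended and robust variances, a mean over probe sets, an adjusted p under 0.1, the block, and leaving out arrays or pairs. Listed genes with no probe set of their own were not analysed here.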

Additional observations from a re-analysis of the deposited data

How the results depend on the processing

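Blocked fits under another filter, scaling, floor, weight or variance were chosen after seeing the data. The limma calls over all probe sets, 9 higher and 0 lower, depended on the fit. They were 913 and 1182 with the replicate block, 142 and 134 with array weights, 29 and 6 with a mean above 6, 35 and 9 with trended and robust variances, 19 and 1 after quantile normalization, 2 and 1 with no filter, and 121 and 98 at an adjusted p under 0.1. With the replicate block they were 1059 and 1339 with array weights, 1374 and 1944 with a mean above 6, 918 and 1320 after median centring, 1233 and 1384 after quantile normalization, 1441 and 1916 with trended and robust variances, 928 and 1221 with the floor at 4, and 0 and 0 with no filter. Leaving out any array, or any pair with the block, gave 0 to 0 calls, in fits with fewer residual degrees of freedom.

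Of the member probe sets, 1 was called higher with the replicate block and with the block under 6 of these 7 settings, each time CEACAM5, and 0 with the block and no filter, where more probe sets are tested. Its blocked difference and limma adjusted p were 0.56 and 0.0491 as reported, 0.52 and 0.0479 with array weights, 0.56 and 0.0249 with a mean above 6, 0.56 and 0.0471 after median centring, 0.61 and 0.0417 after quantile normalization, 0.56 and 0.0454 with trended and robust variances, and 0.56 and 0.0478 with the floor. Without the block it ran from 0.29, without control V1, to 0.73, without control V2. GNE passed in the same settings, at -1.88 with the block, -1.73 with array weights, -1.89 after median centring, -1.86 after quantile normalization and -1.88 in the others, with limma adjusted p from 0.0129 to 0.0348.

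Members near 0 changed sign and passed nowhere. With 1 array left out, CEACAM1 ran from -0.0488 to 0.26, CEACAM6 from -0.0457 to 0.0482, TFF1 from -0.13 to 0.29 and AGR2 from -0.14 to 0.16. With the block and 1 pair left out, CEACAM6 was -0.0057 without pair V2, and without pair V1 TFF1 was -0.1192, AGR2 -0.0612 and TSPAN8 -0.0046. CEACAM6 was -0.0066 with array weights, -0.0066 after median centring with or without the block, and -0.0447 averaged over its probe sets; TFF1 was -0.0112 with the block and array weights. TMED2 ran from -0.1645 to 0.0372, the highest without control V3. CEACAM5, TFF2, PIGR and LCN2 kept their direction in all settings run. The replicate block changed no call of another member. Among listed genes, FOXA3 passed in 5 of 6 of the blocked alternatives (limma adjusted p 0.0308 to 0.325), WFDC2 in 2 of 7 (0.0287 to 0.233) and CREB3L4 in 1 of 7 (0.0471 to 0.451), none of them passing in the blocked fit reported. The siGNE mean of FOXA3, 3.87, was below the filter of 4.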
